A study of Mus musculus with 8 samples.

Results

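Bone morphogenetic proteins (BMPs) and activins are secreted ligands of the TGF-beta superfamily that signal through pairs of type I and type II receptor kinases to SMAD transcription factors. Their reach is limited by antagonists, most of which bind the ligand outside the cell and keep it from its receptor. In the embryonic mouse lung BMP4 is made at the distal tips of the growing buds, and forced expression of BMP antagonists there is known to favour proximal over distal epithelial fates. Which of the separated tissues carries the transcripts of the antagonists was examined for 9 genes: *Nog*, *Chrd*, *Chrdl1*, *Grem1*, *Fst*, *Fstl1*, *Fstl3*, *Bambi* and *Twsg1*. They were chosen by name, with earlier results of these data known, and all 9 were found among the 18996 genes tested.

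The samples were 4 of distal tip epithelium and 4 of the mesenchyme around it, from wild-type mouse lungs at stage E12.5, and the labels call the source an organ homogenate. The strain is C57bl/6J in the sample labels but BALb/c in the series description, which counts 4 embryonic mice with no map from mouse to sample. The dissected tips held mesothelium beside the mesenchyme, and the tissues were parted with dispase and needles. Each of the 4 arrays carried 1 epithelium sample in Cy3 and 1 mesenchyme sample in Cy5 with no dye swap by the sample labels, so tissue and dye cannot be told apart in any difference given here. The methods of the study describe hybridising Cy3-labelled RNA, so the sources differ on the dyes.

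Signals are the authors' log2 normalized values, each difference is epithelium minus mesenchyme on that log2 scale, and 1 unit is a doubling. The tissues were compared with limma over all genes, without pairing the samples of 1 array, and a gene passed at a Benjamini-Hochberg adjusted p under 0.05. The markers of both tissues followed the labels: all 12 epithelial genes, *Cdh1* and *Foxa2* among them, were higher in the epithelium (median difference 4.19), and all 12 mesenchymal genes, *Col1a1* and *Pdgfra* among them, were higher in the mesenchyme (median -1.17). Other cell types did not divide evenly. Of 10 smooth muscle genes 8 were higher in the epithelium (median 2.59), with a mean signal over the list of 10.77 to 10.87 in the epithelium samples and 8.60 to 8.77 in the mesenchyme samples. The neural list gave 7 of 8 genes on that side too, with a mean signal of 5.57 to 5.69 for epithelium samples and 4.24 to 4.38 for mesenchyme samples. All 10 endothelial genes (median -3.57, mean signal 5.62 to 5.95 in epithelium and 9.18 to 9.23 in mesenchyme samples) lay higher on the mesenchyme side. So did all 8 blood genes (median -2.65, mean signal 7.11 to 7.27 in epithelium and 10.00 to 10.13 in mesenchyme samples). Of 9 mesothelial genes 7 did (median -3.93, mean signal 5.20 to 5.38 in epithelium and 7.73 to 7.77 in mesenchyme samples), while *Msln* and *Krt19* were higher in the epithelium. In such pieces of tissue, fewer cells of a type and less RNA per cell cannot be told apart.

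The antagonists did not share a tissue. Higher in the epithelium were *Chrdl1*, *Fst*, *Nog* and *Chrd*, the mesenchyme had more *Bambi*, and *Fstl1*, *Fstl3*, *Twsg1* and *Grem1* did not pass the test. The epithelium was thus higher for 4 of the 9 genes, against 21.2% of all genes, and the mesenchyme for 1, against 24.8% of all genes. In all, 5 of the 9 passed, against 45.9% of all genes, and the median of the 9 differences was 0.33, beside -0.03 over all genes. With a difference of at least 1 in size also required, 4 of the 9 passed, against 13.9% of all genes: 3 were higher in the epithelium (6.69% of all genes) and 1 in the mesenchyme (7.24%). With a list of 9 genes these shares are a description and were not tested as a set. The sign of the difference was the same on all 4 arrays for each of the 9 genes. With the array as a replicate block, *Grem1* and *Twsg1* also passed towards the mesenchyme, as did 30.9% of all genes.

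**Figure D1:**
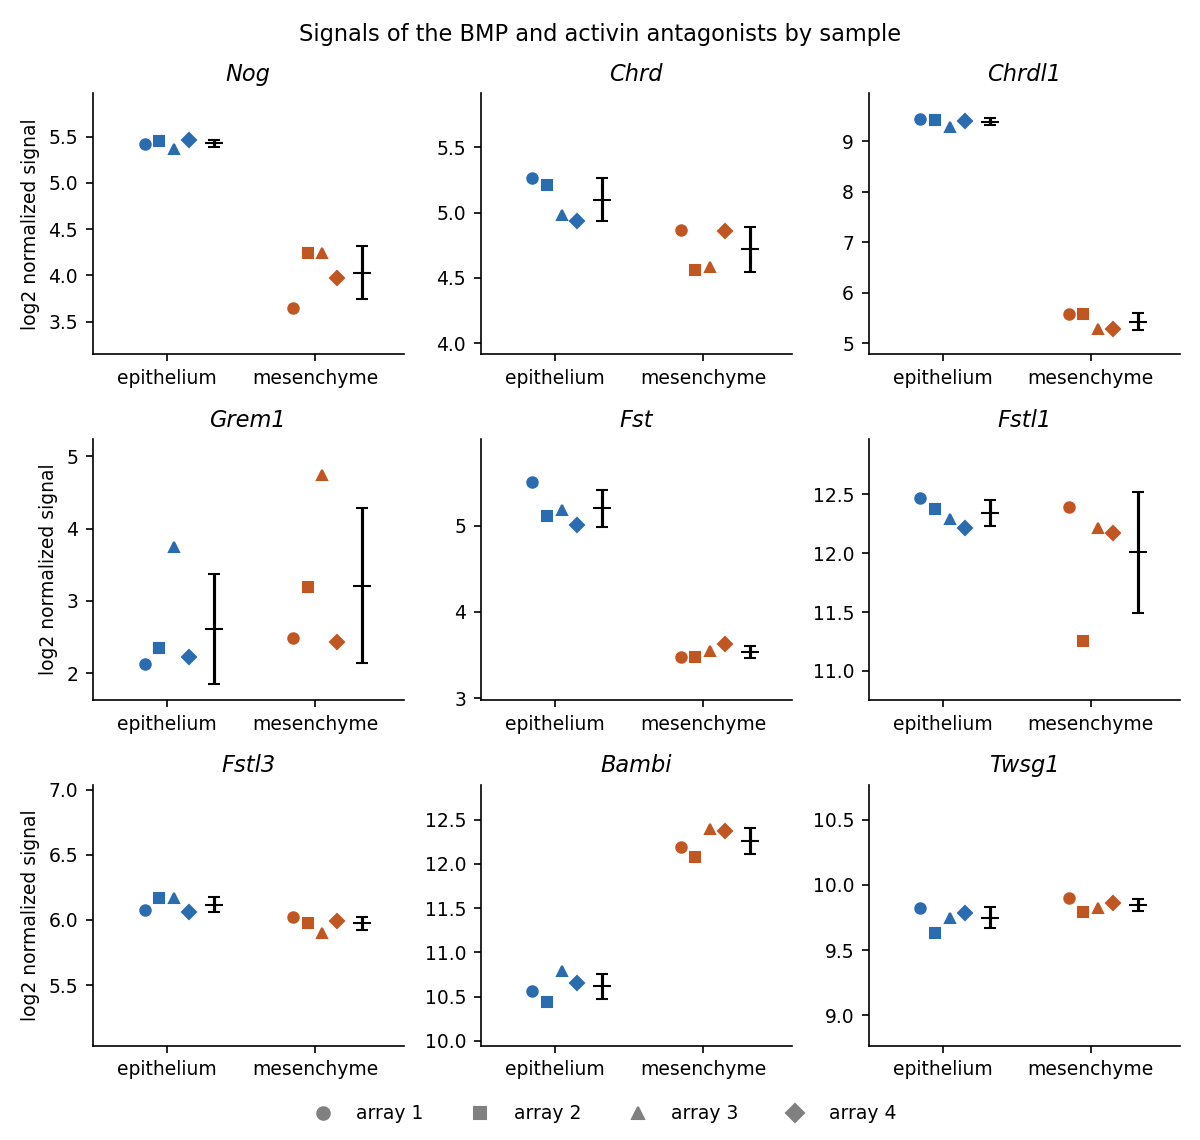
Log2 normalized signal of each of the 9 antagonists in the 4 epithelium samples (blue) and the 4 mesenchyme samples (orange), with the array shown by the symbol, and the mean ± SD at the right of each group. *Chrdl1*, *Fst* and *Nog* lie higher in all epithelium samples and *Bambi* in all mesenchyme samples, *Grem1* is high on array 3 in both tissues, and each panel has its own vertical range.

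Of the secreted antagonists that bind BMPs, *Chrdl1* had the widest difference of the 9 genes. *Chrdl1* encodes chordin-like 1 (ventroptin), a relative of chordin that binds BMP4. Its signals were 9.44, 9.41, 9.29 and 9.40 in the epithelium samples, against 5.58, 5.58, 5.28 and 5.28 in the mesenchyme samples. The samples of each tissue lay close together and far from those of the other. The difference was 3.96 (SE 0.09, 95% interval 3.75 to 4.16, adjusted p = 4.31e-09 from limma), or 15.5-fold higher in the epithelium, with 3.83 to 4.12 on the single arrays. The gene has 3 spots with different accessions. The second, with a mean signal of 3.57, also lay higher in the epithelium, by 2.37 (SE 0.11), whereas the third, with a mean signal of 2.27, had 0.39 (SE 0.15, adjusted p = 0.0656 from limma over all spots). The signal below which the dimmest 30% of genes lie is 3.31, so the third spot says little about the gene. The mesenchyme mean of the second spot, 2.38, lay below that level too, so the size of its difference is uncertain.

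*Nog* encodes noggin, which binds BMP2, BMP4 and BMP7 and covers their receptor-binding surfaces. The signals were 5.42, 5.45, 5.37 and 5.47 in the epithelium samples, against 3.64, 4.25, 4.25 and 3.97 in the mesenchyme samples. Every epithelium sample lay above every mesenchyme sample, and the mesenchyme samples were more spread, with the lowest on array 1. The difference of the means, 5.43 ± 0.04 in the epithelium and 4.03 ± 0.29 in the mesenchyme (SD, n = 4 each), was 1.40 (SE 0.13, adjusted p = 2.60e-05 from limma), or 2.64-fold. It was 1.12 to 1.77 on the single arrays. The array holds 1 spot for the gene, so no other probe could be set beside it.

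*Chrd* encodes chordin, which holds BMPs away from their receptors until it is cut by proteases. Its signals were 5.27, 5.21, 4.98 and 4.93 in the epithelium samples, against 4.87, 4.56, 4.58 and 4.86 in the mesenchyme samples. The groups did not overlap, but the lowest epithelium sample and the highest mesenchyme sample were only a small step apart. The difference was 0.38 (SE 0.11, 95% interval 0.13 to 0.63, adjusted p = 0.0203 from limma), or 1.30-fold, and it was 0.07 on array 4 against 0.40, 0.65 and 0.40 on the others. The call was lost without epithelium sample 1 (adjusted p = 0.0570), epithelium sample 2 (adjusted p = 0.0567), mesenchyme sample 2 (adjusted p = 0.0537) or mesenchyme sample 3 (adjusted p = 0.0526), and without array 2 (adjusted p = 0.121) or array 3 (adjusted p = 0.0597), all from limma.

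*Twsg1* encodes twisted gastrulation, which binds both BMPs and chordin and can either strengthen or relieve the block. It was measured at 9.82, 9.64, 9.75 and 9.78 in the epithelium samples, against 9.90, 9.79, 9.82 and 9.86 in the mesenchyme samples. The groups overlapped, and the tissues lay nearer to each other than for any of the other 8 genes. The difference was -0.10 (95% interval -0.23 to 0.04, adjusted p = 0.223 from limma). The other spots gave 0.07 and 0.06, so the sign of the difference turns with the spot. With the array as a replicate block the difference of -0.10 passed (adjusted p = 0.0415 from limma), at a size of 1.07-fold.

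*Grem1* encodes gremlin, a cystine-knot antagonist of BMP2, BMP4 and BMP7 that is studied in lung and limb development. It was the dimmest of the 9 genes, with a mean signal at percentile 25.1 of all genes. The signals were 2.13, 2.34, 3.74 and 2.22 in the epithelium samples, against 2.48, 3.19, 4.74 and 2.43 in the mesenchyme samples. The sample of array 3 was the highest in both tissues, and the groups overlapped. The difference was -0.60 (SE 0.56, 95% interval -1.89 to 0.69, adjusted p = 0.432 from limma). It moved when 1 sample of array 3 was left out, to -0.98 without the epithelium sample and -0.09 without the mesenchyme sample. Without both it was -0.47 (SE 0.21). On each array the mesenchyme was the higher, by at least 0.21 in size, and with the array as a replicate block the difference passed (SE 0.16, adjusted p = 0.0314 from limma), whereas with the array as a random block it did not (SE 0.30, adjusted p = 0.116 from limma). With the replicate block 3 of the 9 genes, *Bambi*, *Grem1* and *Twsg1*, were higher in the mesenchyme, against 30.9% of all genes, and the 4 genes higher in the epithelium stood against 26.5% of all genes. The 7 genes that passed in either direction stood against 57.4%.

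Of the 9 genes, 5 have an entry in the RefSeq promoter table of GRCm38.p6 (*Grem1*, *Chrd*, *Fstl1*, *Fstl3* and *Twsg1*). The 250 bases before the annotated start were searched for GGCGCC, a GC-rich sequence that SMAD proteins of the BMP branch bind. It is its own reverse complement, so 1 search covers both strands. The motif occurred once in *Grem1* and once in *Chrd* and not in the other 3, and 9.59% of all 32851 windows in the table hold it. The *Grem1* window is shown as the one with the motif that lies outside the annotated span of its gene, at chr2:113758649-113758898 on the minus strand, with the motif in capitals.
Grem1: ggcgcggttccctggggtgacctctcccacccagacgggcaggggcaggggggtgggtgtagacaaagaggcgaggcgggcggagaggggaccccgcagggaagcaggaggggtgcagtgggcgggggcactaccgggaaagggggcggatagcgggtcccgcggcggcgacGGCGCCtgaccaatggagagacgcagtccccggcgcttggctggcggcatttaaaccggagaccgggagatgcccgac
The motif begins 78 bases before the start, and 72.0% of the bases of the window are G or C. A match of these letters is not evidence of binding in the lung.

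Of the follistatin family, follistatin and FSTL3 bind activins more tightly than BMPs. *Fst* encodes follistatin, which wraps around activin and also binds some BMPs and myostatin. Its signals were 5.50, 5.11, 5.18 and 5.01 in the epithelium samples, against 3.48, 3.48, 3.54 and 3.63 in the mesenchyme samples. All epithelium samples were well above all mesenchyme samples, whose mean of 3.53 ± 0.07 (SD, n = 4) lay near the level of the dimmest 30% of genes. The difference was 1.67 (SE 0.10, adjusted p = 1.80e-06 from limma), or 3.18-fold, with 1.38 to 2.02 on the single arrays, from 1 spot.

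*Fstl3* encodes a relative of follistatin that binds activin and myostatin. Its signals were 6.07, 6.17, 6.17 and 6.06 in the epithelium samples, against 6.02, 5.98, 5.90 and 5.99 in the mesenchyme samples. The groups did not overlap, as for 6 of the 9 genes (44.3% of all genes do not overlap), but the step between them was small. The difference was 0.15 (SE 0.05, adjusted p = 0.0578 from limma), and its dim second spot had 0.54 (SE 0.21). The call depended on the setting, as 6 of 15 alternatives with all samples put it below the threshold, with adjusted p between 0.0138 and 0.135.

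*Fstl1* encodes a secreted glycoprotein that shares the follistatin domain, binds BMP4 and is needed for lung development in the mouse. It was bright in both tissues, at 12.47, 12.38, 12.29 and 12.21 in the epithelium samples, against 12.39, 11.25, 12.21 and 12.17 in the mesenchyme samples. The groups overlapped, and mesenchyme sample 2 stood apart below the rest. The difference was 0.33 (95% interval -0.19 to 0.85, adjusted p = 0.280 from limma). On array 2 it was 1.12, against 0.04 to 0.08 on the other arrays, and without mesenchyme sample 2 it was 0.08 (adjusted p = 0.515 from limma).

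*Bambi* is of another kind. It encodes a membrane protein that resembles a type I receptor without the kinase domain and blocks signaling by joining the receptor complex, and BMPs themselves are known to induce it. Its signals were 10.57, 10.44, 10.79 and 10.66 in the epithelium samples, against 12.19, 12.08, 12.39 and 12.37 in the mesenchyme samples. The tissues were far apart for a gene that was bright in both. The difference was -1.64 (SE 0.10, adjusted p = 1.36e-06 from limma), or 3.12-fold higher in the mesenchyme, and -1.71 to -1.60 on the single arrays. Of its 11 spots, 10 had mean signals of 11.04 to 11.44 and differences of -1.72 to -1.62. Whether they repeat 1 probe is not given in the sources used here. The other spot, under the same accession, had a mean signal of 2.39 and a difference of -0.26 (adjusted p = 0.186 from limma over all spots).

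**Figure D2:**
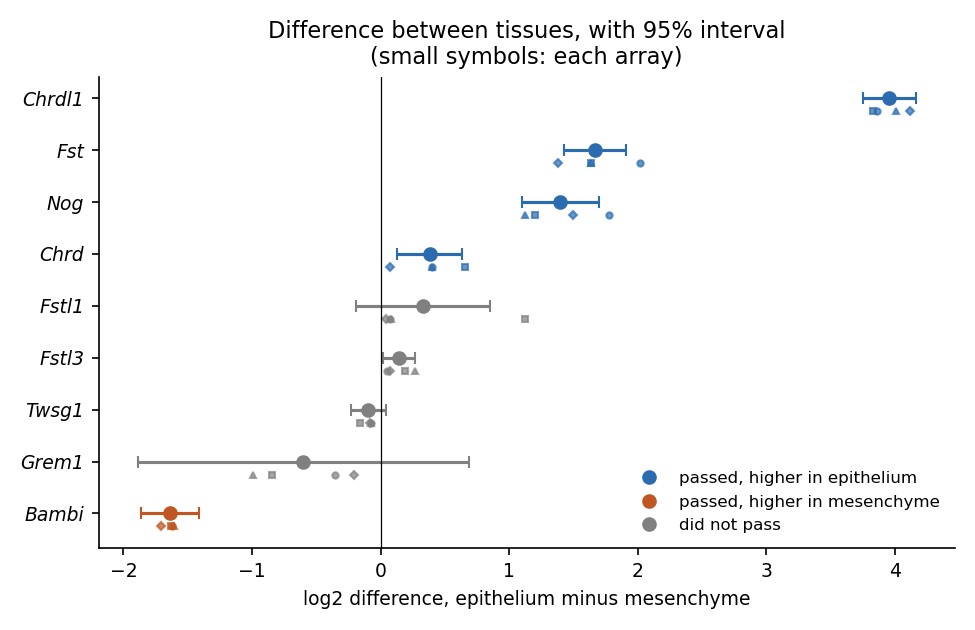
Log2 difference (epithelium minus mesenchyme) of each of the 9 antagonists from limma, ordered from *Chrdl1* at the top to *Bambi* at the bottom, with the 95% interval and, below each, the difference on each of the 4 arrays as small symbols. *Chrdl1* lies at 3.96 and *Bambi* at -1.64, the interval of *Grem1* runs from -1.89 to 0.69, and for *Fstl1* 1 array stands apart from the other 3.

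**Figure D3:**
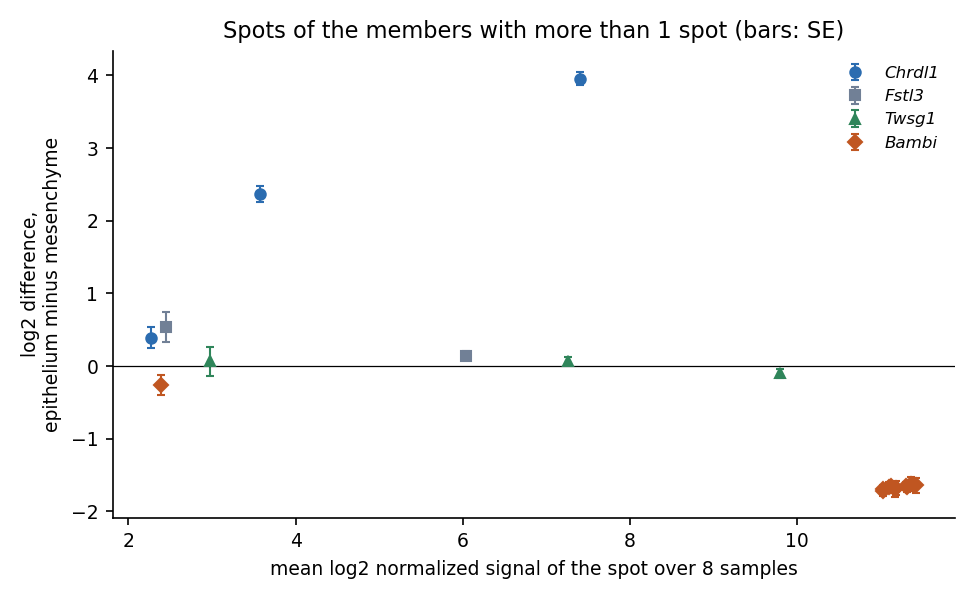
Log2 difference (epithelium minus mesenchyme, bars SE) of every spot of the 4 antagonists with more than 1 spot, against the mean log2 normalized signal of the spot over the 8 samples. The 10 bright spots of *Bambi* lie together between -1.72 and -1.62, and the dimmest spots of *Chrdl1*, *Bambi* and *Twsg1* lie nearer 0. The dim spot of *Fstl3* goes the other way, at 0.54 against 0.15 for its bright spot.

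*Chrdl1*, *Fst* and *Nog* lay on the same side as the lists of smooth muscle and of neural genes given above, and *Bambi* on the same side as the endothelial, blood and mesothelial lists. The part of those cells in the differences was not tested. The 3 genes with profiles nearest to *Chrdl1* over the 8 samples, by Euclidean distance after centring each gene, were *Thbs1* (distance 0.28, difference 3.86), *Akr1c19* (0.30, 4.14) and *Prom2* (0.34, 4.00). Nearest to *Bambi* were *Snai1* (distance 0.12, difference -1.59), *Lrrk2* (0.15, -1.57) and *Ighm* (0.15, -1.65). These distances rest mostly on the size of the tissue difference, with 8 samples on 4 arrays.

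Other antagonists and modulators of BMP, activin and nodal were also found on both sides. Of 19 measured (median 0.05), 4 passed towards the epithelium, 6 towards the mesenchyme and 9 did not pass, counts near the 21.2% and 24.8% of all genes. *Cer1*, which encodes a cerberus-like antagonist of nodal and BMP, had signals of 7.46 ± 0.12 in the epithelium and 2.04 ± 0.12 in the mesenchyme (SD, n = 4 each) and a difference of 5.42 (SE 0.08, adjusted p = 1.14e-09 from limma) from 1 spot. Its mesenchyme signal lay among the dimmest 30% of genes, so the size of the difference is limited by the dim end of the scale. *Sostdc1*, a secreted antagonist of BMP that also acts on WNT, had 1.46 (SE 0.15). Towards the mesenchyme the widest were *Vwc2* (-2.43, SE 0.14), which encodes a relative of chordin, and *Bmper* (-2.01, SE 0.05), which encodes a BMP-binding protein of endothelial cells. The other spot of *Vwc2* had -0.48 and that of *Bmper* -1.92. The mesenchyme mean of *Sostdc1* (3.52) and the epithelium mean of *Vwc2* (3.71) lay near the level of the dimmest 30% of genes.

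Of the proteases known to cut chordin or its relatives, *Bmp1* was 0.37 higher in the epithelium (SE 0.06, with 0.07 for its other spot) and *Tll1* had -1.40 (SE 0.10), with signals of 2.33 ± 0.19 in the epithelium and 3.74 ± 0.10 in the mesenchyme (SD, n = 4 each). *Htra1*, a secreted serine protease that can act on TGF-beta family signaling, was higher in the epithelium (1.67, SE 0.07).

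Among the ligands, 13 BMP and GDF genes were measured (median 0.09). Of these, 5 passed towards the epithelium (21.2% of all genes) and 2 towards the mesenchyme (24.8% of all genes). *Bmp4*, a ligand that chordin-like 1 and noggin bind, had signals of 9.23 ± 0.06 in the epithelium and 8.72 ± 0.08 in the mesenchyme (SD, n = 4 each), a difference of 0.51 (SE 0.06, adjusted p = 0.000138 from limma), and its 10 spots gave 0.46 to 0.55. *Bmp7* was higher in the epithelium by 1.39 (SE 0.08), with 1.39 to 1.47 over 11 spots, whereas *Bmp2* was dim and did not pass (-0.29, adjusted p = 0.121 from limma). Others that passed towards the epithelium were *Bmp8b* (2.03), *Gdf5* (1.65) and *Bmp3* (1.44), and *Gdf6* (-3.23) passed towards the mesenchyme. The mesenchyme signal of *Bmp8b* (2.35) was dim and the epithelium signal of *Gdf6* (3.31) lay at the level of the dimmest 30% of genes, so the sizes of these differences are uncertain. Of 9 activin-type genes (median -0.18), 1 passed towards the epithelium and 3 towards the mesenchyme, beside the same shares of all genes. With the array as a replicate block the counts were 2 and 5 in the same order, against 26.5% and 30.9% of all genes. *Inhba*, which encodes the subunit of activin A, had a difference of -0.21 (SE 0.06, adjusted p = 0.0208 from limma) and *Inhbb*, the subunit of activin B, -1.57 (SE 0.14, with -0.10 for its other spot). *Nodal* (-0.38) was also higher in the mesenchyme and the inhibin gene *Inha* (0.28) in the epithelium, while *Gdf11*, a ligand that follistatin binds, had -0.18 and did not pass.

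Receptors of both branches were present in each tissue. Of 12 receptor and co-receptor genes (median 0.26), 6 were higher in the epithelium, against 21.2% of all genes. Another 2 were higher in the mesenchyme, against 24.8% of all genes, and 4 did not pass. The activin receptor genes *Acvr2b* (1.02, SE 0.07), *Acvr1b* (0.93, SE 0.08) and *Acvr2a* (0.25, SE 0.06) were higher in the epithelium, as was the BMP receptor gene *Bmpr1b* (0.80, SE 0.06), although the dimmest of the 3 spots of *Acvr2a* had a difference of 0.00. The type I receptor gene *Acvr1* passed on the other side (-0.65, SE 0.09, with an adjusted p of 0.000276 by limma), and the dim *Acvr1c* had 0.28 and did not pass, both named after their values were seen. *Bmpr1a*, the more widely expressed BMP type I receptor, had 0.08 and did not pass. *Eng*, an endothelial co-receptor, had -3.09, on the side of the endothelial markers. Of 9 *Smad* and *Smurf* genes, 2 passed in each direction, beside the same shares of all genes. *Smad9*, a mediator of BMP signals, had 1.08 (SE 0.23, with -0.15 for its other spot), and *Smurf2*, a ligase that turns over SMADs and receptors, 0.24. On the other side lay *Smad5* (-0.25), which carries BMP signals, and the shared partner *Smad4* (-0.19, with 0.20 for its other spot). The inhibitory *Smad6* had -0.17 and did not pass. With the array as a replicate block 4 passed in each direction, against 26.5% of all genes towards the epithelium and 30.9% towards the mesenchyme.

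A chosen list of 9 genes that BMP signaling commonly induces does not cover every such gene. By their brightest spots all 9 passed (median -0.89). Of these, 2 were higher in the epithelium (21.2% of all genes) and 7 in the mesenchyme (24.8% of all genes). With the mean over all probes of a gene 6 passed towards the mesenchyme. *Id1* (-1.05, SE 0.08), *Id3* (-1.33, SE 0.05) and *Id4* (-1.62, SE 0.07), which encode inhibitors of bHLH factors, lay on the side of *Bambi*, as did *Gata2* (-2.49, SE 0.15). *Id2* (2.61, SE 0.07) and the homeobox gene *Msx2* (2.39, SE 0.12) lay on the other side, and all 3 spots of *Id2* (1.38 to 2.61) and all 10 of *Msx2* (2.23 to 3.01) had that sign. The 11 spots of *Msx1*, named after its values were seen, did not share a sign and ran from -0.59 to 0.51. Several of these genes also respond to other signals, so their levels do not measure the BMP response, and their relation to the antagonists was not tested.

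**Figure D4:**
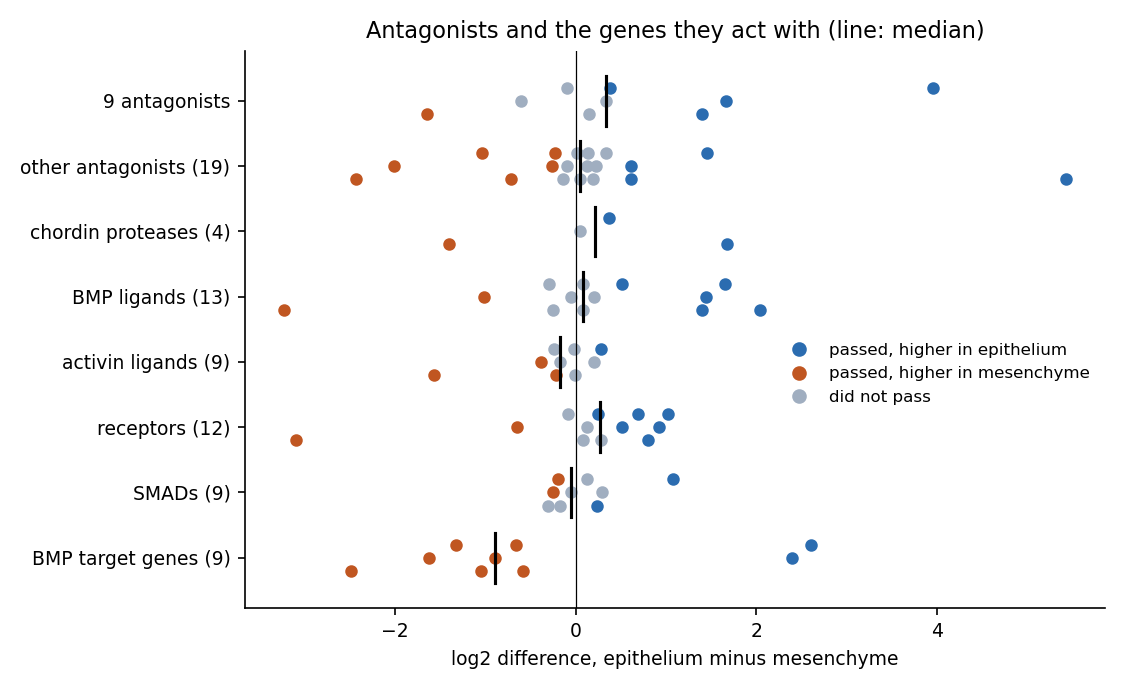
Log2 difference (epithelium minus mesenchyme) of each gene of the 9 antagonists and of 7 lists of genes they act with, with the number of genes measured in brackets, coloured by the limma call, and the median of each list as a vertical line. The antagonists spread to both sides, and 7 of the 9 BMP target genes lie on the side of the mesenchyme.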

How the data were processed

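RNA from separated E12.5 lung epithelium and mesenchyme was hybridised to 4 arrays of 2 colours. By the study's methods, the authors read spots with Mapix 6.5.0 and, in limma 3.30.13 under R 3.3.2, corrected mean signals with normexp on negative controls (offset 1), took logarithms and quantile-normalized them. The base is not stated, and the range of the deposited values fits log2. Each sample takes 4150 to 5272 distinct values over all spots, so equal signals recur between samples. The paper's text gives n = 3 for this comparison, whereas the labels give 4 samples a tissue, all used here. Precision is limited by the number of arrays.

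Of 45220 features, 33653 had 1 gene in the platform annotation, 56 had several and 11511 had none in that table. A missing value removed 523 features. The brightest spot stood for each of 18996 genes, as in the methods but without averaging replicate spots. All 9 antagonists matched RefSeq by gene ID.

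Tissues were set against each other, unpaired and 4 against 4, in limma 3.58.1 (lmFit, eBayes) under R 4.3.3. The alternatives were the array as a block, other spots, filters, scalings, variance settings, thresholds and leaving out samples or arrays. Samples of 1 array deviated together across genes (correlations of 0.35, 0.62, 0.53 and 0.47), so the numbers pair the samples. No source says that replicates came from separate embryos, so the spread behind the p-values may be technical. In simulated data over 18996 genes, 88% of 50 genes changed by 1, 52% of 50 changed by 0.5 and 8% of 50 changed by 0.25 were recovered, with 11 false calls. The simulation changed few genes and drew independent noise for each sample. In the data 45.9% of all genes passed and samples of 1 array deviated together, so these rates do not carry over to the comparison.

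The antagonists and the gene lists were chosen with earlier results of these data known. Named were the 9 antagonists, up to 4 passing genes of each pathway list with the widest differences, and ligands, receptors, SMADs and targets set by role. *Smad7*, *Acvrl1* and *Hfe2* were not analysed here. Plots were drawn with matplotlib 3.10.9 in Python 3.11.15.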

Additional observations from a re-analysis of the deposited data

Results flagged for a closer look

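The signal of *Grem1* in epithelium sample 3 was 3.74, against 2.13 to 2.34 in the other 3 epithelium samples. Its gap to the nearest sample was 0.867 of the range of the group, above Dixon's critical value for 4 samples at the 95% level. The mesenchyme sample of the same array was also the highest of its tissue (4.74), but its gap of 0.673 stayed below that value. Of the 18 groups tested, 9 genes in 2 tissues, this was the only one to pass, and chance passes about 5% of groups. The low mesenchyme sample of *Fstl1* came close, with a gap of 0.808.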

How the results depend on the processing

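*Chrdl1*, *Bambi*, *Fst* and *Nog* kept their direction under all 15 alternatives with all samples and all 12 that left out samples or arrays. *Fst* and *Nog* passed in all of them. *Chrdl1* (0.39, adjusted p = 0.0777) and *Bambi* (-0.26, adjusted p = 0.212) did not pass with the dimmest probe of each gene, by limma, and passed elsewhere. With 1 spot each, *Fst* and *Nog* could not change under the settings that choose or average probes. The array blocks and the thresholds leave the difference itself as it is, so its direction could not change there. The count of antagonists higher in the mesenchyme, 1, was 3 with the array as a replicate block, 2 with the array as a random block (*Bambi* and *Twsg1*) and 0 with the dimmest probes. Over all genes the mesenchyme count moved from 4704 to 5877, 6176 and 3446 in the same order. Leaving out single samples or arrays gave 3 to 4 antagonists towards the epithelium and 1 towards the mesenchyme. Over all genes it gave 3431 to 3870 and 3999 to 4570 in the same order, against 4024 and 4704 with all samples. *Twsg1* changed sign to 0.0126 with the mean over its probes, 0.0709 with the second brightest and 0.0635 with the dimmest.

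For the SMAD list the array as a replicate block gave 4 in each direction, the mean over all probes gave 1 and 1, and leaving out single samples gave 1 to 3 in each direction (1 towards the epithelium without epithelium sample 1, and 1 towards the mesenchyme without epithelium sample 1 or 2). For the activin list the block gave 2 towards the epithelium, with 5 on the mesenchyme side, and the mean over probes gave 2 in the epithelium. Leaving out single samples gave 1 to 2 in the epithelium, the 2 without mesenchyme sample 3. Over all genes, epithelium first, the counts were 5035 and 5877 with the block and 3897 and 4572 with the mean over probes. Without single samples they were 3649 to 3870 and 4311 to 4570. Without the dimmest 30% of genes no chordin protease was left higher in the mesenchyme (0), as *Tll1* is among them, and *Grem1* was not tested. Requiring a difference of at least 1 left 1270 genes of the whole array towards the epithelium and 1375 towards the mesenchyme, against 4024 and 4704 without it. The array as a replicate block changed no other call of the 9 antagonists than those of *Grem1* and *Twsg1*. As a random block it changed those of *Twsg1* (adjusted p = 0.0355) and *Fstl3* (adjusted p = 0.0138) and not that of *Grem1* (adjusted p = 0.116), by limma. Loess within each array and centring on the median moved the median of all genes by less than 0.1. Dim signals limit *Grem1*, the mesenchyme levels of *Fst*, *Nog*, *Cer1*, *Sostdc1* and *Bmp8b*, and the epithelium levels of *Gdf6*, *Tll1* and *Vwc2*.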
